A study of Mus musculus with 5 samples.

Results

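Mgmt, Mpg and 6 core mismatch repair genes (Msh3, Msh6, Mlh3, Pms1, Pms2 and Exo1) were followed in mouse colon tumors that formed with or without human SIGLEC12 in the intestinal epithelium. The genes were chosen by symbol because azoxymethane, the carcinogen of the model, is an alkylating agent. Each of the 8 symbols matched 1 of the 52143 gene rows of the expression table. RNA was sequenced from tumors of female mice in 5 samples, each taken as 1 mouse, namely Control replicates 1 and 4 and SIGLEC12 replicates 2, 3 and 4. Control mice were littermates that carried the Villin1-Cre-ERT transgene only. SIGLEC12 mice carried that transgene and 1 conditional knock-in allele of human SIGLEC12 at ROSA26, whose CAG promoter drives the gene after Cre removes a stop cassette flanked by loxP sites. The villin promoter restricts the recombinase to the epithelium of the small and large intestine, so the activated allele belongs to epithelial cells and not to the other cells of a tumor. Both groups received tamoxifen (10 mg/ml) for 5 days from 8 weeks of age, azoxymethane at 10 mg/kg into the peritoneum, and 4 cycles of 2.0% dextran sodium sulfate for 5 days with 14 days of recovery between them, and tumors were taken on day 87. The comparison asks how the mRNA of these repair genes differed between the groups. The human transgene has no row among the mouse genes, so the label of each sample was not checked against it. The design text speaks of 3 mice in each group, and the additional Control is not analysed here.

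Azoxymethane is converted in the body to a species that methylates DNA bases. Mgmt encodes the methyltransferase that takes the methyl group off guanine in a single step and is used up by doing so, and Mpg encodes the glycosylase that cuts out methylated adenine and guanine and starts base excision repair. Methylated guanine that escapes Mgmt pairs with thymine, and this mispair is bound by the mismatch recognition complexes in which Msh6 (single mismatches and small loops) or Msh3 (larger loops) is a subunit. Pms2, Pms1 and Mlh3 belong to the MutL family that acts next, with Pms2 and Mlh3 carrying an endonuclease site, and Exo1 is the exonuclease that removes the strand with the error. Loss of mismatch repair in colon tumors is known for length changes in short repeats.

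Levels were deposited as log2(TPM + 1), TPM being the length-corrected abundance of a gene's transcripts, scaled so that all annotated RNA of a sample sums to 1000000. Protein-coding genes made up 5.70% and 6.74% of all TPM in Control replicates 1 and 4 and 8.85%, 8.75% and 9.72% in SIGLEC12 replicates 2, 3 and 4. A protein-coding gene with an equal share of the protein-coding RNA in every tumor thus had a higher TPM in the SIGLEC12 samples, and over the 10338 genes with at least 1 TPM in at least 2 samples the median log2 fold change (SIGLEC12 against Control) was 0.38. Each gene is therefore also given after every sample was rescaled to the same protein-coding total, which set that median at 0.01. Control replicate 1 stood apart. Its summed level of 7 squamous epithelial markers was 2626 TPM, against 539 TPM in the other Control sample and 354 to 909 TPM in the SIGLEC12 samples, and its 11 columnar epithelial markers summed to 416 TPM, against 1256 TPM and 1236 to 2029 TPM. Markers of fibroblasts (8.71 and 10.5 TPM in Control, 18.0 to 57.9 TPM in SIGLEC12), endothelium (0.564 and 0.691 TPM against 1.32 to 3.54 TPM) and B and plasma cells (0.116 and 0.246 TPM against 0.673 to 1.42 TPM) were higher in every SIGLEC12 sample, with Cd79a under 0.1 TPM in all 5 samples. Their part in the results below was not tested, and in bulk tumor RNA fewer cells of a type and less RNA per cell cannot be told apart.

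The letters GGGCGG (a GC box) and CCAAT were looked for on both strands in the RefSeq promoter windows of the members (GRCm38.p6, 250 bases before to 50 bases after the start). The windows below belong to Pms1 and Pms2, which start beside a gene on the other strand, and to Mpg and Msh6, the members whose groups were apart after rescaling. They are shown 5′ to 3′ on the strand of the member, and capitals mark every match.
Msh6, plus strand, chr17:87974800-87975099: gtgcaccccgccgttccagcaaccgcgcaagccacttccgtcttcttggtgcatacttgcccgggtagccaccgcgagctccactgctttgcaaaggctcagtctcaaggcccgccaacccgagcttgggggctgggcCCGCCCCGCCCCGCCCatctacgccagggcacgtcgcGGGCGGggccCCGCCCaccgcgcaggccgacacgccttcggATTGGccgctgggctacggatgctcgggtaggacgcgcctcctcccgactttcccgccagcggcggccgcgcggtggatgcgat
Pms1, minus strand, chr1:53296979-53297278: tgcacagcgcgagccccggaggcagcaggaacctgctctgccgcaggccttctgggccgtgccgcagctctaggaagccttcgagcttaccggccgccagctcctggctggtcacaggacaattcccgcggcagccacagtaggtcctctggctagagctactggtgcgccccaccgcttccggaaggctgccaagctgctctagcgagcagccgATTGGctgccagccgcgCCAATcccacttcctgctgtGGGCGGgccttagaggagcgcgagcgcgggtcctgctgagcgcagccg
Pms2, plus strand, chr5:143909751-143910050: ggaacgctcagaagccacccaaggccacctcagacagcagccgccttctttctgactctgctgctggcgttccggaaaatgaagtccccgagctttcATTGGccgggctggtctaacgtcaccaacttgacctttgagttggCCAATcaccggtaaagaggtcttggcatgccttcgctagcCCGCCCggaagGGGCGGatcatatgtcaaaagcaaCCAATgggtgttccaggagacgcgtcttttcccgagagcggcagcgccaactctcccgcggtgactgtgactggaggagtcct
Mpg, plus strand, chr11:32226255-32226554: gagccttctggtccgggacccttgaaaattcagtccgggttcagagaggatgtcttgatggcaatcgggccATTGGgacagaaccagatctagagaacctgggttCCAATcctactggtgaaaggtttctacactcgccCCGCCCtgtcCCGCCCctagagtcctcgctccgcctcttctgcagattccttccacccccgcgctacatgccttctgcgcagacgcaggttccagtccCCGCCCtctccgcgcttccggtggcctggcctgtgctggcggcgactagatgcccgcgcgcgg
GGGCGG was present in 35.7% of all 32851 windows of this length and CCAAT in 37.4%. The letters TTTCGCGC and TTTGGCGC were looked for in the same way, and 0.813% of all windows held at least 1 of them. Exo1 had no window in the set used, so it was not searched. Among the windows of the other 7 members, that of Msh3 (not shown) held both, in matches that share 4 bases. No other window held either. The Msh6, Pms1, Pms2 and Mpg windows held 5, 1, 2 and 3 GGGCGG matches and 1, 2, 3 and 2 CCAAT matches. The start of Ormdl1 (GENCODE M21) lay at base 184 of the Pms1 window and the start of Aimp2 at base 97 of the Pms2 window. A match is a description of the letters and not a site of binding.

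The 8 genes were expressed at low levels, with means over the 5 samples from 0.104 TPM (Mgmt) to 1.60 TPM (Msh6). Msh6 ranked first, Pms1 seventh and Mgmt eighth in every sample. Mpg (mean 1.09 TPM) and Msh3 (mean 1.07 TPM) came next to Msh6, and they exchanged places between groups, Msh3 being the higher in both Control samples and Mpg in all 3 SIGLEC12 samples. Pms2 (mean 0.674 TPM), Exo1 (0.642 TPM) and Mlh3 (0.575 TPM) followed, with ranges over the samples that overlapped, so their order is not separated from their spread. Among the 21995 protein-coding rows, Msh6 stood between percentiles 64.8 and 75.7 of its sample, and Mgmt between percentiles 38.2 and 40.8. Msh6 exceeded 1 TPM in 5 samples and Msh3 in 3, whereas Mpg exceeded 1 TPM in the 3 SIGLEC12 samples and in neither Control sample, so that Mpg entered the test through the group in which it was higher. The other 5 genes stayed under 1 TPM throughout, and for them the fit over all 52143 rows with no filter is given. Low levels compress a fold change on the log2(TPM + 1) scale, so the ratio of mean TPM is given beside it.

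**Figure D1:**
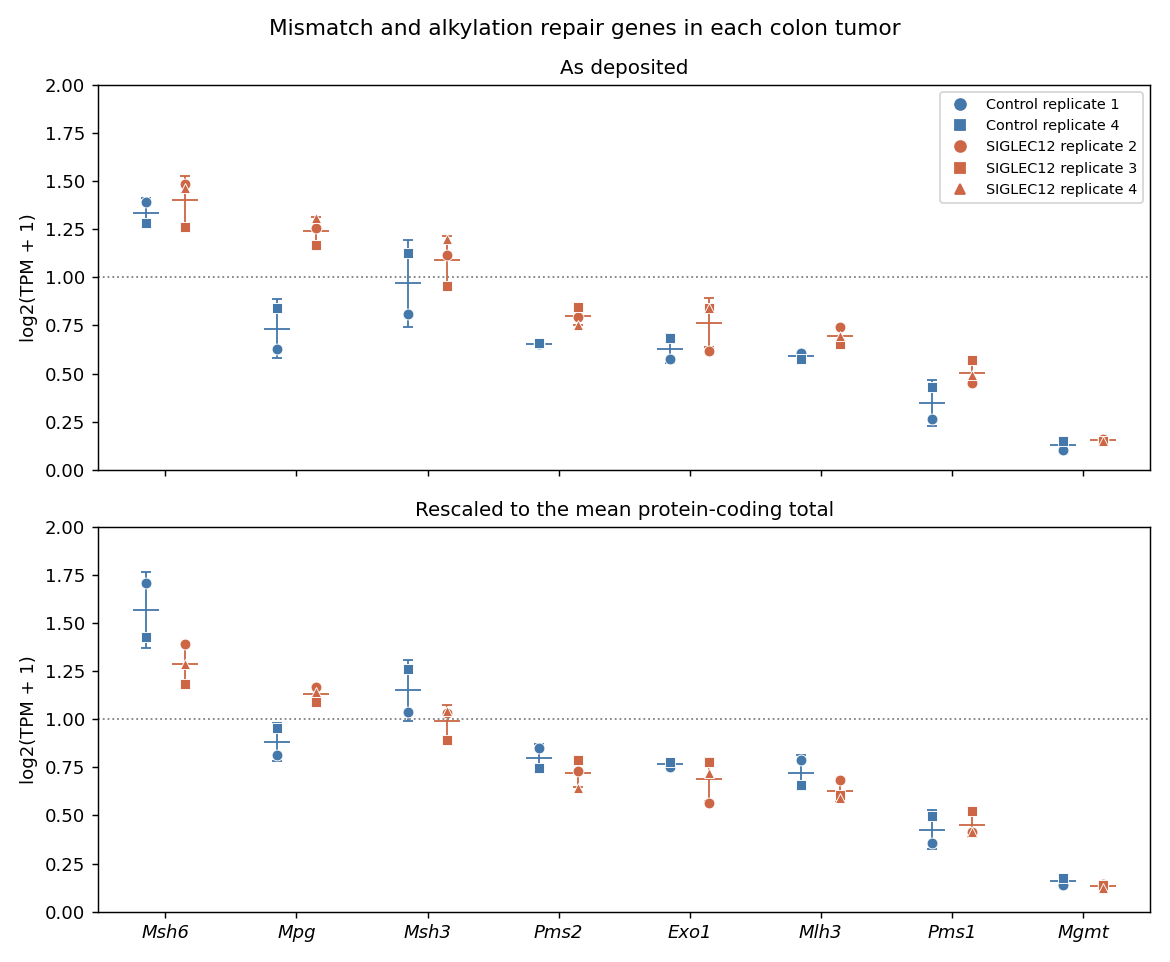
Level of each repair gene as log2(TPM + 1) in every tumor, as deposited (top) and after rescaling each sample to the mean protein-coding total (bottom); points are samples, crossbars and error bars are the group mean and SD (2 Control, 3 SIGLEC12), and the dotted line is 1 TPM. On the deposited scale the groups were apart for Mpg, Pms2, Mlh3 and Pms1, and after rescaling for Mpg (higher in SIGLEC12) and Msh6 (lower).

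Taken gene by gene, all 8 means were higher in SIGLEC12 tumors as deposited, and 6 of the 8 were lower after rescaling. The groups did not overlap for 4 members as deposited (Mlh3, Pms1, Pms2 and Mpg, each higher). Of the 6502 protein-coding rows whose mean TPM lay in the range of the members, 82.4% had a higher mean as deposited and 47.5% after rescaling, and 39.3% were higher with no overlap as deposited. Of the 10338 genes that passed the filter, 54.1% were higher with no overlap and 87.2% had a higher mean. After rescaling, Mpg was higher with no overlap and Msh6 lower with no overlap, where 11% and 16.6% of those 6502 rows, and 15.6% and 16.8% of the 10338 genes, were higher and lower with no overlap. No member passed limma's test at an adjusted p under 0.05, and 1 (Mpg) had an unadjusted limma p under 0.05 as deposited, where 33.4% of the 10338 genes tested were higher by that rule. No gene of the 10338 (0%) passed at an adjusted p under 0.05 (3543 were under 0.05 unadjusted), the smallest adjusted p being 0.0974. The median log2 fold change of the 8 members was 0.13 as deposited and -0.08 after rescaling, beside 0.16 and -0.01 for the 6502 rows of like level. With 2 samples against 3, an exact permutation test cannot go below p = 0.1. Control replicate 1 was the lowest sample for 6 of the 8 genes as deposited. Without it, the mean was higher in SIGLEC12 for 7 of the 8 genes as deposited and for 1 after rescaling.

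Msh6 (chr17:87975062-87990892, GRCm38, plus strand) encodes the subunit that recognises single mismatches. Its level was 1.62 and 1.43 TPM in Control replicates 1 and 4 and 1.80, 1.39 and 1.76 TPM in SIGLEC12 replicates 2, 3 and 4. SIGLEC12 replicate 3 was the lowest sample and the groups overlapped. Its log2 fold change was 0.07 (SE 0.16; by limma, adjusted p = 0.761; TPM ratio 1.08). As a share of protein-coding TPM, Msh6 was lower in all 3 SIGLEC12 samples, at 28.5 and 21.3 in 1000000 for Control against 20.4, 15.9 and 18.1 in 1000000. The rescaled log2 fold change was -0.28 (SE 0.15; by limma, adjusted p = 0.475), with an exact permutation p of 0.1, the smallest it can give. The interval of the rescaled change ran from -0.65 to 0.08, and leaving out Control replicate 1 gave -0.14 and leaving out Control replicate 4 gave -0.42.

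Msh3 (chr13:92211872-92355003, minus strand) encodes the subunit for larger loops. It measured 0.754 and 1.19 TPM in the Control samples and 1.17, 0.939 and 1.30 TPM in the SIGLEC12 samples. The 2 Control samples differed from each other by more than the group means did, and the groups overlapped. On the log2 scale the change was 0.12 (SE 0.18; by limma, adjusted p = 0.628) as deposited and -0.16 (SE 0.15; by limma, adjusted p = 0.645) after rescaling. Without Control replicate 1 it was -0.04 as deposited.

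Pms2 (chr5:143909964-143933968, plus strand), the endonuclease subunit that nicks the strand with the error, had nearly equal deposited levels in the Control samples. The Control values were 0.575 and 0.577 TPM, and the SIGLEC12 values were 0.733, 0.799 and 0.685 TPM. All 3 SIGLEC12 samples were above both Control samples. The log2 fold change was 0.14 (SE 0.06; TPM ratio 1.28), with a limma p of 0.0705 that became 0.597 after adjustment. After rescaling the groups overlapped and the log2 fold change was -0.08 (SE 0.07).

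Pms1 (chr1:53189187-53297018, minus strand), a MutL family member without the endonuclease site, had its lowest value in Control replicate 1. Its level was 0.200 and 0.349 TPM in Control and 0.368, 0.484 and 0.405 TPM in SIGLEC12, a ratio of 1.52 that fell to 1.20 without Control replicate 1. The groups did not overlap, but SIGLEC12 replicate 2 and Control replicate 4 were close. The log2 fold change was 0.16 (SE 0.08; by limma, adjusted p = 0.783) as deposited and 0.02 (SE 0.08) after rescaling, with overlap.

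Mlh3 (chr12:85234520-85270599, minus strand), the MutL member best known for crossing over in meiosis, measured 0.522 and 0.489 TPM in Control and 0.673, 0.572 and 0.617 TPM in SIGLEC12. The groups were apart by a small margin. Its log2 fold change was 0.11 (SE 0.06; by limma, adjusted p = 0.787; TPM ratio 1.23), and -0.10 (SE 0.07) with overlap after rescaling.

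Exo1 (chr1:175880581-175913489, plus strand), the exonuclease, measured 0.492 and 0.605 TPM in Control and 0.532, 0.790 and 0.790 TPM in SIGLEC12. SIGLEC12 replicate 2 lay between the Control samples and the other two SIGLEC12 samples lay above both. The log2 fold change was 0.14 (SE 0.10; by limma, adjusted p = 0.894; TPM ratio 1.28) and -0.08 (SE 0.09) after rescaling.

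Mgmt (chr7:136894614-137130266, plus strand), the enzyme for direct reversal of guanine methylation, was the lowest of the 8 genes. Its level was 0.0727 and 0.111 TPM in Control and 0.116, 0.110 and 0.110 TPM in SIGLEC12. Control replicate 1 was below the other 4 samples. The log2 fold change was 0.03 (interval -0.11 to 0.17) as deposited and -0.02 (interval -0.16 to 0.11) after rescaling, and the groups overlapped on both scales. The table keeps no read counts, so the depth behind these low values is unknown.

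Mpg (chr11:32226505-32232700, plus strand), the glycosylase for methylated bases, had the largest difference of the 8 genes on the deposited scale. Its level was 0.543 and 0.792 TPM in Control and 1.39, 1.25 and 1.47 TPM in SIGLEC12. Every SIGLEC12 sample was above both Control samples, and the ratio of mean TPM was 2.05. This was a log2 fold change of 0.51 (SE 0.17, interval 0.11 to 0.91), with a limma p of 0.0205 and an adjusted p of 0.107. As Mpg entered that fit only through its SIGLEC12 samples, the fit with no filter is given too. There the log2 fold change was the same and the SE was 0.098. The interval ran from 0.23 to 0.79, with a limma adjusted p of 0.299. As limma draws each gene's variance in part from all rows fitted, the narrower interval is no separate support for a difference. As a share of protein-coding TPM, Mpg was 9.53 and 11.8 in 1000000 for Control and 15.7, 14.2 and 15.2 in 1000000 for SIGLEC12, a ratio of 1.41 with no overlap. The rescaled log2 fold change was 0.25 (SE 0.14, interval -0.09 to 0.59, limma adjusted p = 0.489). With no filter the rescaled interval ran from 0.06 to 0.44 around the same change (SE 0.068, limma adjusted p = 0.77). An unadjusted limma p under 0.05 was thus lost on rescaling in the filtered fit and kept in the unfiltered one. In the filtered fit on the deposited scale that call was also lost when Control replicate 1 (log2 fold change 0.40), SIGLEC12 replicate 2 (0.50) or SIGLEC12 replicate 4 (0.48) was left out. The transcript that the table names beside the gene, for Mpg as for Mlh3, is annotated as a target of nonsense-mediated decay, and 1 of the 4 annotated Mpg transcripts is coding.

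**Figure D2:**
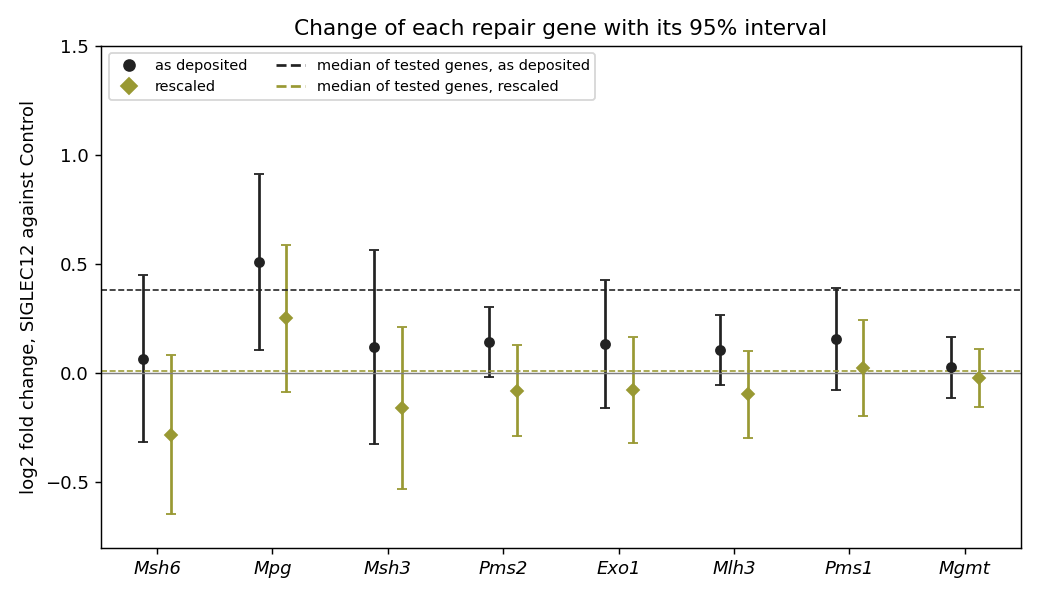
Log2 fold change (SIGLEC12 against Control) of each repair gene with its 95% interval from limma, as deposited (circles) and rescaled (diamonds), with dashed lines at the median of all genes tested on each scale (0.38 and 0.01). The median of the 6502 protein-coding rows of the members' range, not drawn, was 0.16 as deposited and -0.01 rescaled. The Mpg interval as deposited (0.11 to 0.91) is the single one drawn that excludes 0. Intervals of Msh6, Mpg and Msh3 are from the fit over filtered genes and the rest from the fit with no filter. In the latter the rescaled Mpg interval (0.06 to 0.44) also excludes 0, with the same estimate and a smaller SE.

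A ratio of 2 genes in the same sample does not depend on the scaling, and 4 such ratios between members were compared. Msh6 to Msh3, the balance of the mismatch recognition subunits, was 2.15 and 1.21 in Control and 1.54, 1.49 and 1.36 in SIGLEC12. Pms2 to Pms1 was 2.87 and 1.65 in Control and 1.99, 1.65 and 1.69 in SIGLEC12. For both ratios the SIGLEC12 values lay within the Control range, which was set by Control replicate 1. Pms2 to Mlh3 stayed between 1.09 and 1.40 in all samples. Exo1 to Msh6 was 0.303 and 0.422 in Control and 0.296, 0.566 and 0.449 in SIGLEC12. The groups overlapped for all 4 ratios, and the differences of the mean log2 ratios (-0.14, -0.30, 0.06 and 0.24, in the order given) had exact two-sided permutation p values of 0.8, 0.7, 0.9 and 0.5, each 0.9 after Benjamini-Hochberg adjustment over the 4. With 1 sample left out, the sign could change for Msh6 to Msh3, Pms2 to Pms1 and Pms2 to Mlh3. Exo1 to Msh6 stayed positive but varied in size. The lowest and highest differences were -0.56 and 0.27, -0.70 and 0.10, -0.053 and 0.13, and 0.00062 and 0.49, in the same order. Mgmt to Mpg is given no fold because Mgmt was under 0.1 TPM in Control replicate 1.

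Pms1 and Pms2 start close to a gene on the other strand. Pms1 and Ormdl1, a regulator of sphingolipid synthesis, start 77 bases apart, and Pms2 and Aimp2, a scaffold of the tRNA synthetase complex, 117 bases apart. On the deposited scale each of these neighbours had a larger log2 fold change than the member beside it. Ormdl1 measured 0.827 and 0.992 TPM in Control and 1.90, 2.95 and 2.20 TPM in SIGLEC12, with a log2 fold change of 0.80 (SE 0.19; by limma, adjusted p = 0.0974) as deposited and 0.49 (SE 0.17; by limma, adjusted p = 0.457) after rescaling. Aimp2 measured 3.81 and 2.96 TPM in Control and 4.83, 5.94 and 5.56 TPM in SIGLEC12, with a log2 fold change of 0.56 as deposited and 0.11, with overlap, after rescaling. Both neighbours were thus higher in every SIGLEC12 sample as deposited, as were 54.1% of the 10338 genes tested. Ormdl1 was so also after rescaling, as were 15.6% of those genes.

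Within each sample, the log2 ratio of Ormdl1 to Pms1 was 2.05 and 1.51 in Control and 2.37, 2.61 and 2.44 in SIGLEC12, a difference of 0.70. This ratio did not overlap between groups, whereas Aimp2 to Pms2 did (difference 0.34). Mpg lies with all its 6196 bases inside Nprl3, a gene of the opposite strand whose product restrains mTOR signalling. Nprl3 measured 0.853 and 1.47 TPM in Control and 1.15, 1.002 and 1.41 TPM in SIGLEC12, so the groups overlapped as deposited (log2 fold change 0.03, limma adjusted p = 0.926). After rescaling Nprl3 was lower in every SIGLEC12 sample (-0.27, SE 0.16, limma adjusted p = 0.505), as were 16.8% of the genes tested. The log2 ratio of Nprl3 to Mpg was 0.65 and 0.89 in Control and -0.28, -0.31 and -0.07 in SIGLEC12, a difference of -0.99 with no overlap. The 2 ratios without overlap had an exact two-sided permutation p of 0.1, the smallest possible, and 0.2 after adjustment over the 4 pairs compared. The share of other gene pairs without overlap was not measured. The ratio of Nprl3 to Mpg uses the Mpg values given above and is no separate support for a difference in Mpg. The remaining pair, Fbxo11 with Msh6, overlaps by 34 bases at the gene ends and had a difference of 0.34 with overlap (exact permutation p = 0.3). Rsph10b, which shares 934 bases with the end of Pms2 on the same strand, was under 0.1 TPM in every sample. The labels name a stranded library kit, but whether strand was used in the quantification is not given in the sources used here, so reads from the overlapping stretches may be split between the genes of a pair.

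**Figure D3:**
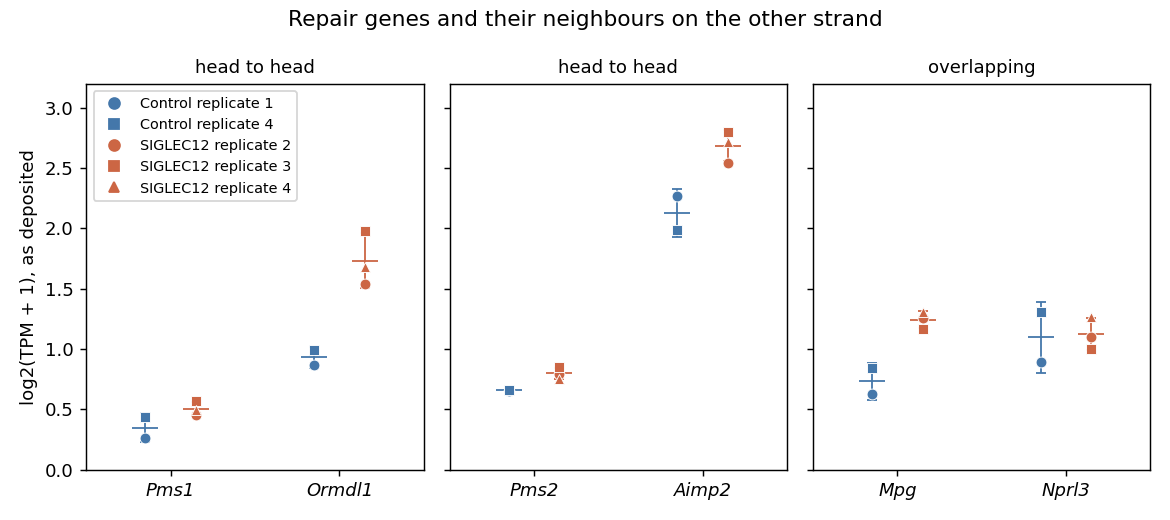
Levels of 3 members and of the gene on the other strand that starts beside them or contains them, as deposited log2(TPM + 1) per tumor, with the group mean and SD. Ormdl1 and Aimp2 were higher in all 3 SIGLEC12 samples, as were 54.1% of the genes tested. Nprl3, which contains Mpg, overlapped between groups on this scale while Mpg did not. After rescaling, Nprl3 was lower in SIGLEC12 with no overlap, as were 16.8% of the genes tested.

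After the error is recognised, the cut strand is removed, refilled and sealed, and 14 genes of that step were measured (Pcna, the replication factor C subunits, the replication protein A subunits, the DNA polymerase delta subunits and Lig1). All 14 passed the filter, though Rfc4 and Rpa2 did so only through SIGLEC12 samples. All 14 had a higher mean in SIGLEC12 as deposited (87.2% of the genes tested did), and 11 were higher with no overlap (54.1%). Their median log2 fold change was 0.56, beside 0.38 for all genes tested. By an unadjusted limma p under 0.05, 8 of the 14 were higher (33.4% of the genes tested), and none passed after adjustment. Rpa3, the smallest subunit of the single-strand binding protein, measured 2.12 and 3.04 TPM in Control and 4.94, 6.84 and 5.12 TPM in SIGLEC12 (log2 fold change 0.89, SE 0.21; by limma, adjusted p = 0.0974). Pold4, the smallest subunit of polymerase delta, measured 0.942 and 1.21 TPM in Control and 2.74, 3.12 and 2.54 TPM in SIGLEC12 (0.87, SE 0.16; by limma, adjusted p = 0.0974). After rescaling, the median was 0.17, 10 of the 14 means were higher and 4 lower, and 3 genes were higher and 1 lower at an unadjusted limma p under 0.05 (4.45% and 6.31% of all genes tested). These were Pold4 (0.54), Rfc4 (0.45), Rfc3 (0.44) and, lower, Rfc1 (-0.34), the large subunit of the clamp loader. With no filter 2 were higher and 1 lower by that rule. Over all 52143 rows 3084 met it in either direction, but most of these rows were below the filter and are no background of like level. Rfc1, Rfc3, Rfc4 and Rpa2 were named after their values were seen.

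Of 21 other genes of direct reversal and base excision repair, 14 passed the filter, and Ung, Ogg1, Neil3 and Smug1 did so only through SIGLEC12 samples (named after their values were seen). With no filter, 20 of the 21 had a higher mean as deposited (82.4% of the protein-coding rows of the members' range did), and the median log2 fold change was 0.26. Among the 14, the mean was higher for 13 (87.2% of the genes tested) and lower for 1, and the median was 0.37. At an unadjusted limma p under 0.05, 4 of the 14 were higher (33.4% of the genes tested). With no filter 8 of the 21 were higher by that rule. Over all 52143 rows 4316 were, but most of these rows were below the filter and are no background of like level. Of the 6502 protein-coding rows of the members' range, 1024 had an unadjusted limma p under 0.05 in either direction. Apex1, the endonuclease that acts at the site a glycosylase such as Mpg leaves, measured 3.59 and 3.41 TPM in Control and 5.07, 6.75 and 5.96 TPM in SIGLEC12 (log2 fold change 0.61, SE 0.18; by limma, adjusted p = 0.0997). Xrcc1, the scaffold of the last steps, was the single gene with a lower mean, at 1.35 and 1.78 TPM in Control and 1.62, 1.38 and 1.64 TPM in SIGLEC12 (-0.01). After rescaling, the median was 0.07 over the 14 and -0.0063 over all 21 with no filter, and Apex1 stood at 0.16. The 2 genes then lower at an unadjusted limma p under 0.05 (6.31% of the genes tested were) were Xrcc1 (-0.35) and its partner, the ligase Lig3 (-0.36). Lig3 was named after its values were seen. None of the 14 was higher by that rule (4.45% of the genes tested were).

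Several of these genes are used in S phase, so 16 proliferation genes were set beside them. All 16 had a higher mean in SIGLEC12 as deposited (87.2% of the genes tested did), with a median log2 fold change of 0.54. Tyms, the thymidylate synthase, measured 1.73 and 3.54 TPM in Control and 4.35, 5.68 and 6.59 TPM in SIGLEC12 (0.88, SE 0.27; by limma, adjusted p = 0.101), and Ccna2, cyclin A, measured 3.37 and 5.20 TPM against 6.48, 7.36 and 11.7 TPM (0.83, SE 0.29; by limma, adjusted p = 0.115). The count at an unadjusted limma p under 0.05 was 9 of 16 as deposited (33.4% of the genes tested were higher) and 0 of 16 after rescaling (4.45%), where the median was 0.12. With no filter the count was 5 as deposited, where 4316 of all 52143 rows were higher by that rule. It was 1 after rescaling, where 3084 of those rows met the rule in either direction. Most of the 52143 rows were below the filter, so they are no background of like level for these genes. The median of the 8 members was below that of each of these lists on both scales, but no test of the difference was made. The levels are also unlike, as 5 members were under the filter and low levels compress a fold change on this scale. The 6502 protein-coding rows of the members' range had a median of 0.16 as deposited and -0.01 after rescaling.

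**Figure D4:**
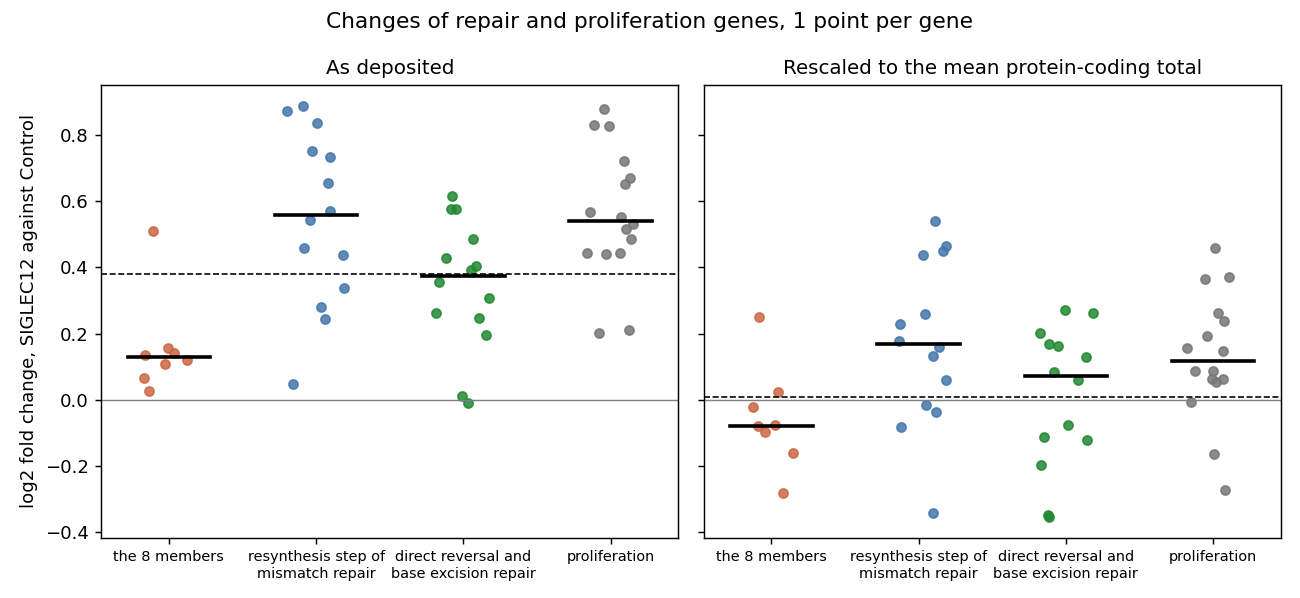
Log2 fold change (SIGLEC12 against Control) of the 8 members and of the genes of 3 related lists that passed the filter (14, 14 and 16 genes), as deposited (left) and rescaled (right); each point is a gene, solid bars are medians and dashed lines the median of all genes tested. The members' median was 0.13 as deposited and -0.08 rescaled, and those of the lists were 0.56, 0.37 and 0.54 as deposited and 0.17, 0.07 and 0.12 rescaled. For the 6502 protein-coding rows of the members' range, not drawn, the median was 0.16 as deposited and -0.01 rescaled.

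The genes whose rescaled levels over the 5 samples ran most like those of a member were looked up among the protein-coding genes that passed the filter, by the Euclidean distance of profiles centred on their mean. Nearest to Mpg were Gnb2 (distance 0.03), Ufm1 (0.03) and Ada (0.05), where the median distance over 9221 candidates was 0.49. Ada, for example, stood at 0.65 and 0.74 in Control and at 1.01, 0.93 and 0.95 in SIGLEC12 on the rescaled log2(TPM + 1) scale. Among the nearest to Msh6 were Fbxw7 (0.06) and Rcc2 (0.06), with a median distance of 0.59. Nearest to Mgmt were Npat (0.03), Kdm1b (0.03) and Prmt5 (0.04), with a median distance of 0.42. The profile of Mgmt is compressed on this scale by its low level, as its share of protein-coding TPM ran from 1.13 to 1.65 in 1000000. A short distance over 5 samples is a description of these profiles only.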

How the data were processed

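RNA of mouse colon tumors was sequenced in 2 Control and 3 SIGLEC12 samples, which were grouped by their treatment labels. The authors deposited log2(TPM + 1) values, 1 row for each of 52143 Ensembl genes, and each column gave 1000000 TPM within 1 when converted back. The submitters' processing notes name kallisto 0.45.0 and GRCm38. The methods of the study name another kallisto version with a human reference, 3 technical replicate libraries per sample, and an mRNA kit where the labels name a total RNA kit. How transcripts were summed and whether a column averages libraries are not given in the sources used here. TPM keeps no depth, so the counting error is unknown, and no count model could be fitted. The depositors' table held 0 value columns that were not mapped to a sample.

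Genes with at least 1 TPM in at least 2 samples (10338) entered a limma fit (version 3.58.1, R 4.3.3, lmFit and eBayes with trend) on the deposited values, with Benjamini-Hochberg adjustment over all of them. Members below the filter were read from the fit over all rows. The second scaling multiplied each sample's TPM by a factor (0.818 to 1.40) that set its protein-coding total to the mean of the 5. Ratios were compared by an exact two-sided permutation test over all 10 assignments of 5 samples to the groups. Intervals are 95%. The fit was tested on simulated data. Each sample was taken as 1 mouse, which the sample labels do not state. The p values measure the spread between samples, and limma's also draw on a variance pooled over the genes fitted. Coordinates and biotypes came from GENCODE M21 (98.45% of identifiers matched) and promoter windows from RefSeq GRCm38.p6. From each gene list, the text names the 2 genes with the largest absolute log2 fold change in each direction among those passing the filter. Some items that these rules name are not reported here. The members and lists were chosen with earlier results of these data known. Alternatives were another pseudocount, filter and scaling, sample weights and each replicate left out.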

Additional observations from a re-analysis of the deposited data

How the results depend on the processing

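No member passed an adjusted p under 0.05 under any alternative run. Mpg was higher in SIGLEC12 under all of them (log2 fold change 0.18 to 0.95). Pms1 was higher under all scalings and Mgmt under quantile normalization, and the other signs changed with the scaling. Rescaling to the protein-coding total, median-ratio size factors and quantile normalization, in that order, gave -0.16, -0.16 and -0.14 for Msh3, -0.28, -0.29 and -0.24 for Msh6, -0.098, -0.10 and -0.039 for Mlh3, -0.080, -0.085 and -0.024 for Pms2 and -0.078, -0.080 and -0.021 for Exo1, and the first 2 gave -0.024 and -0.024 for Mgmt. Leaving out 1 replicate at a time gave -0.038 to 0.28 for Msh3 as deposited and -0.048 to 0.095 for Pms1 rescaled. The count of genes at an adjusted p under 0.05, 0 of 10338, became 90 with no filter and 0 to 1606 with 1 replicate left out, the 1606 being without Control replicate 4. Higher genes at an unadjusted limma p under 0.05 went from 3449 to 1732 with a filter of 5 TPM, to 460, 488 and 610 under the 3 scalings, and to 1438 to 4416 with 1 replicate left out, the lowest without Control replicate 1. Lower genes went from 94 to 668 with no filter, 33 at 5 TPM, 652, 679 and 527 under the scalings, and 75 to 278 with 1 replicate left out. Median log2 fold changes of the 14 strand removal and resynthesis genes, the direct reversal and base excision genes and the 16 proliferation genes were 0.17, 0.071 and 0.12 rescaled, 0.16, 0.065 and 0.11 with median-ratio factors, and 0.18, 0.083 and 0.13 with quantiles. For the first 2 lists they were 0.77 and 0.63 at a pseudocount of 0.1 and 0.81 and 0.50 at 5 TPM. The difference of log2 ratios ranged from -0.56 to 0.27 for Msh6 to Msh3 and from -0.70 to 0.10 for Pms2 to Pms1, the extremes being without Control replicate 1 and without Control replicate 4. Where no value above shows it, the cause was not tested. Summing rows of a symbol changed nothing because each symbol has 1 row. No paired analysis was possible because replicate 4 is the only number found in both groups. All alternatives with no filter for Mlh3, Pms1, Pms2, Exo1 and Mgmt, the rescaled fits without 1 replicate, the unfiltered list values, and the neighbour pairs were chosen after seeing the data.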
